A study of Mus musculus with 2 samples.

Results

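In all, 10 imprinted genes outside the Slc22a18 domain were followed across the cell types of the mouse liver: H19, Meg3, Rian, Mirg, Grb10, Igf2r, Airn, Peg3, Plagl1 and Impact. They were taken from both count tables by their gene symbol, 10 of 33696 genes, and all 10 had counts in both libraries. The study set the liver of SLC22A18-/- mice against that of SLC22A18+/+ mice by droplet single-cell RNA sequencing with a 3' kit, and each genotype had 1 library. No other allele, agent or treatment is named for either group, and the sources used here do not give the strain, age, sex, number of animals per library or deleted exons. The libraries are called KO-labelled (SLC22A18-/-) and WT-labelled (SLC22A18+/+) below. With 1 library per genotype there is no replicate check and no p-value, and genotype cannot be told apart from animal or preparation.

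An imprinted gene is transcribed mainly from the allele of 1 parent, set by a methylation mark that is laid down in the germ line and kept through cell division. H19, Meg3, Rian, Mirg and Igf2r are known as maternally expressed and Grb10 as maternally expressed outside the brain, whereas Peg3, Plagl1, Airn and Impact are known as paternally expressed. Several of them belong to a network of growth genes that is active in the fetus and silenced in most organs after birth, and H19 is a standard example of a fetal liver gene that is shut down in the adult. The counts used here do not tell the parental alleles apart, so they give the amount of RNA and say nothing of which allele made it.

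Unique molecular identifiers (UMIs) numbered 103478998 in 11741 barcodes of the KO-labelled library and 105556354 in 12796 barcodes of the WT-labelled one. After filters 11155 and 12029 cells were kept, with median UMIs of 5865 and 5362, and 34 of them carried a barcode found in both libraries. The targeted gene, Slc22a18, had 1399 UMIs in KO-labelled hepatocytes, or 53.0 CPM (the gene's share of all UMIs scaled up as counts per 1000000, 95% interval 50.2 to 55.8), and 1603 UMIs in WT-labelled hepatocytes, 58.2 CPM (55.4 to 61.1). In other classes with few Slc22a18 UMIs it was lower in the KO-labelled library with intervals apart: 1.32 and 4.17 CPM in endothelial cells (32 and 112 UMIs), 5.74 and 11.25 CPM in Kupffer cells (77 and 134 UMIs) and 8.43 and 37.8 CPM in cholangiocytes (9 and 34 UMIs). Stellate cells had 31.3 and 28.1 CPM, but their clusters differed. A stellate cluster that also carried hepatocyte RNA (Alb 6145 and 5843 CPM) had 46.6 and 55.3 CPM. The stellate cluster led by Dcn and Colec11 had 0.345 and 2.53 CPM, and the one led by Col3a1 and Col1a1 had 8.15 and 6.48 CPM. A 3' tag outside the deleted exons checks nothing, and the deleted exons are not known here, so the labels were not checked by these values. Cells were placed in 13 classes by marker genes, such as Alb in hepatocytes (8561 and 11370 CPM), Stab2 in endothelial cells (3030 and 3078 CPM) and Msln in mesothelial cells (394 and 819 CPM), and every class held 7 or more of its markers in at least 10% of its cells.

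On mouse chromosome 12 (GRCm38, GENCODE annotation), Meg3 (109541001 to 109571726), Rian (109603940 to 109661716) and Mirg (109729764 to 109749460) follow each other on the plus strand, 32 kb and 68 kb apart. H19 lies on chromosome 7 (142575529 to 142578143, minus strand), 896 kb from Slc22a18, and Peg3 is on the same chromosome (6703892 to 6730431, minus strand). Igf2r (chromosome 17, 12682406 to 12769664, minus strand) and Airn (12741311 to 12860136, plus strand) overlap over 28354 bases on opposite strands. The sources used here do not say whether counting used the strand, so reads in that overlap cannot be assigned to either gene with certainty. Grb10 lies on chromosome 11 (11930508 to 12038683, minus strand) and Plagl1 on chromosome 10 (13060504 to 13131694, plus strand).

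The long RNAs among them are also hosts of microRNAs. In the RefSeq table of GRCm38.p6, hairpin entries number 1 in H19, 1 in Meg3 (miR-770), 3 in Rian and 14 in Mirg, and 54 lie between the start of Meg3 and the end of Mirg. Meg3 also holds the mature sequence of miR-1906, with no hairpin entry. Mature sequences of the H19 and Meg3 hairpins, 1 from Rian and the pair from Mirg that share a seed are shown because the results on the cell classes and on single cells turn on these host RNAs. Capitals mark the seed (bases 2 to 8). A 3' library of polyadenylated RNA does not count mature microRNAs, and none was measured here.
miR-675-5p: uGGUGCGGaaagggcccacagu
miR-675-3p: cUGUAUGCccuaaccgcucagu
miR-770-5p: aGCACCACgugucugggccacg
miR-770-3p: cGUGGGCCugacguggagcugg
miR-370-3p: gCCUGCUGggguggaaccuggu
miR-453: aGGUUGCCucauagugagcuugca
miR-496a-5p: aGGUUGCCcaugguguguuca

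Promoters of 8 of the 10 genes were matched in RefSeq, each as 300 bases from 250 before to 50 after a start site. The promoters of 4 genes are shown, those whose RNAs moved together across cell classes or whose promoters share a motif: Meg3 stands at the head of the Rian and Mirg cluster, Igf2r and Airn are the overlapping pair, and Peg3 shares a motif with Meg3. Sequences run 5' to 3' on the strand of the gene, and capitals mark CG dinucleotides.
Meg3, chr12:109540746-109541045, plus strand: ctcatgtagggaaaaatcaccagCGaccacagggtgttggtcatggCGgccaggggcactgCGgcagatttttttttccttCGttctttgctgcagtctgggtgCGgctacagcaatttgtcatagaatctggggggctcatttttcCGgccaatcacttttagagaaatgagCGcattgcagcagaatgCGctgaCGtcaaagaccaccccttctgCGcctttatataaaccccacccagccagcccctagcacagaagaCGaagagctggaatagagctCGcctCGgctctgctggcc
Peg3, chr7:6730370-6730669, minus strand: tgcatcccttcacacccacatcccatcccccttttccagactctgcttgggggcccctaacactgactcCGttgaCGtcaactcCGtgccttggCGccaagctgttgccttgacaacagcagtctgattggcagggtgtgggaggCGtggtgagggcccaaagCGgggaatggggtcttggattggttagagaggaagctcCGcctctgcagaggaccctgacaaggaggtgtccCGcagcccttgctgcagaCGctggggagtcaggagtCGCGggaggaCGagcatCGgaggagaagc
Igf2r, chr17:12769657-12769956, minus strand: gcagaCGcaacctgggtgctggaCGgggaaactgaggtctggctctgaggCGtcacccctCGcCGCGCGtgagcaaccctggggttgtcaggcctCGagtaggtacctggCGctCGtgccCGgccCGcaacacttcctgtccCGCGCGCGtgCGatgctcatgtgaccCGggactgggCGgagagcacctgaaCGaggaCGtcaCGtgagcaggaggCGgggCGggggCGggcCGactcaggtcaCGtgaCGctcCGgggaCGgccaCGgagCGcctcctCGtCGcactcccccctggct
Airn, chr17:12741061-12741360, plus strand: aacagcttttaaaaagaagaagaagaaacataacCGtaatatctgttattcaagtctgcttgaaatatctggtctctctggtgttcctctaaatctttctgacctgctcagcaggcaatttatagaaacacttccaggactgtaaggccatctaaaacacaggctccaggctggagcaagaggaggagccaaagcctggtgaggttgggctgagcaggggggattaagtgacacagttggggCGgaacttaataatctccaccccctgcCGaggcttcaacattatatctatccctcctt

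The Igf2r promoter held 34 CG dinucleotides, which 7.73% of the 32851 promoters reached or passed, whereas that of Airn held 3 (76.7% of promoters had as many). Grb10 had the most of the members, 45 (1.93%), with 9 (45.8%) at a second start site, Plagl1 had 26 (16.9%), Meg3 had 13 (37.9%) at the start site shown and 1 (94.6%) at a second, Peg3 had 13 (37.9%), Mirg had 10 (43.5%), Rian had 0, and the median over all promoters was 7. The cAMP response element TGACGTCA, a palindrome that reads the same on both strands and contains 1 CG, occurred at base 194 of the Meg3 window and base 73 of the Peg3 window, counted from the first printed base. It was found in 588 of the 32851 promoters (1.79%) and in no other member window. The motif was chosen with these members known, and a match is a description of letters and not of binding.

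Apart from H19, the class with the highest levels of a member was much the same in both libraries, as the map of levels shows. Meg3, Rian and Mirg were carried by mesothelial and stellate cells, Grb10 by endothelial, stellate, mesothelial and cholangiocyte cells, Plagl1 by endothelial and stellate cells, Peg3 by cholangiocytes, hepatocytes and stellate cells, and Impact by neutrophils, Kupffer, plasmacytoid dendritic and NK/ILC1 cells. Igf2r and Airn shared high levels in NK/ILC1 and T cells, and Airn was highest in cholangiocytes and mesothelial cells. H19 was near 0 in most classes. Levels below are CPM with exact Poisson 95% intervals, which cover counting error only. CPM of a 3' tag is not corrected for features of the transcript, so levels are compared between cell classes for a gene and not between genes.

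**Figure D1:**
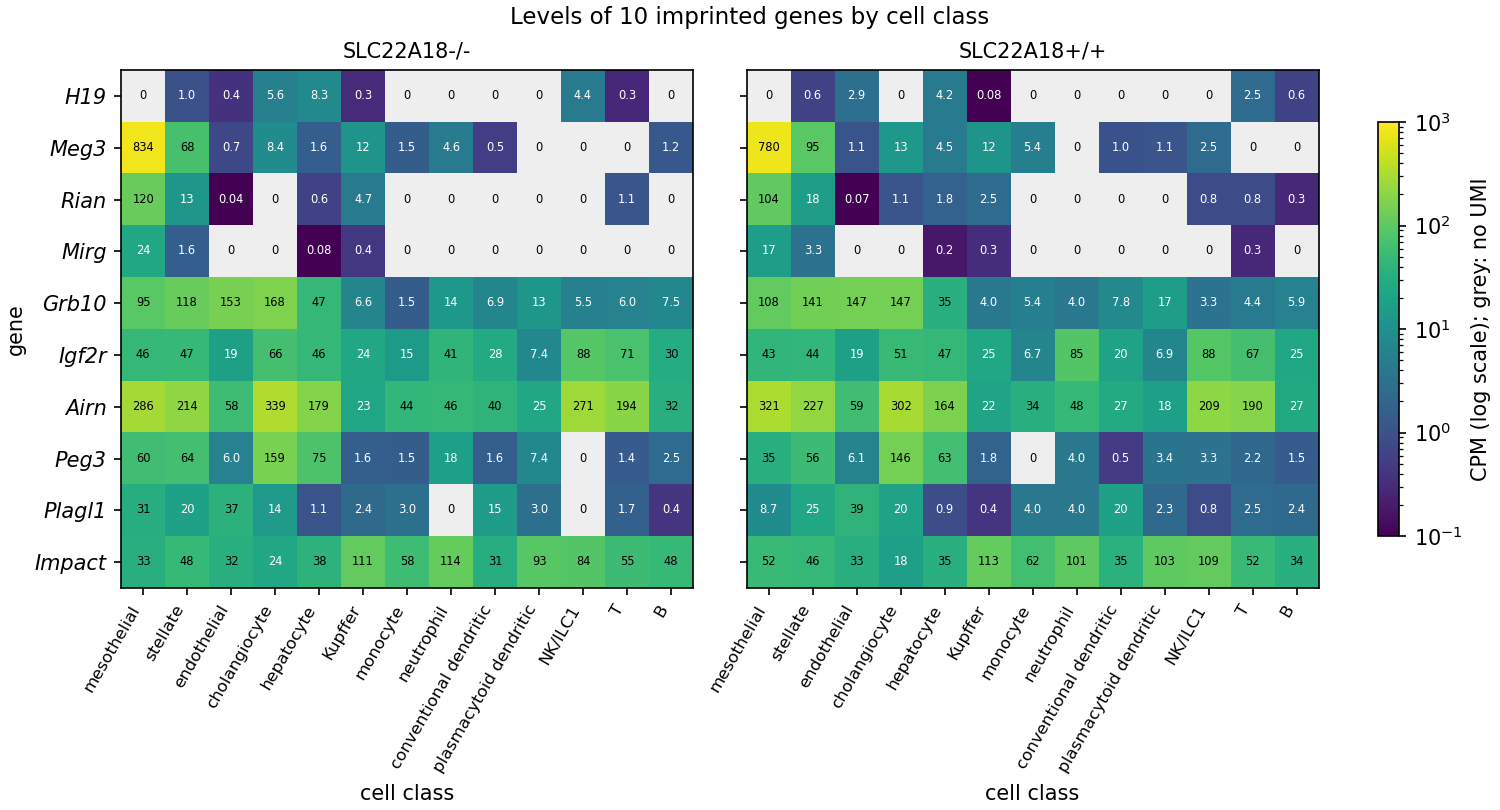
Heat map of the level of each of the 10 genes (rows) in 13 cell classes (columns), as CPM on a log colour scale, with the library labelled SLC22A18-/- on the left and the one labelled SLC22A18+/+ on the right. Numbers are CPM, and grey cells had no UMI. Meg3 stands out in mesothelial cells at 834 and 780 CPM, and H19 stays at 8.33 CPM or less in every class.

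Meg3, a long noncoding RNA known as a growth suppressor, was highest in mesothelial cells. It reached 834 CPM (752 to 923) in 48 KO-labelled mesothelial cells and 780 CPM (670 to 903) in 44 WT-labelled ones, and 68.0 CPM (63.1 to 73.3) and 95.3 CPM (89.3 to 102) in stellate cells. In both libraries the mesothelial interval lay above the stellate one, and the stellate one lay above those of Kupffer cells (11.8 and 11.7 CPM) and cholangiocytes (8.43 and 13.4 CPM), which overlapped each other. The share of mesothelial cells with a Meg3 UMI was 87.5% in the KO-labelled and 70.5% in the WT-labelled library, or 70.6% and 68.0% after thinning each cell to 2000 UMIs, which left out 14 and 19 cells. T cells, a type that should lack the gene, had 0 Meg3 UMIs in 616 and in 652 cells, which allows up to 0.855 and 0.830 CPM at 3 counts. The median T cell had 4922 and 5127 UMIs, and the median mesothelial cell 3659 and 2477. Mesothelial cells also carried Alb, at 6882 and 4611 CPM. Stellate and mesothelial markers summed to 2231 and 2167 CPM in the 21 KO-labelled ones with the most Meg3. Those without Meg3 had 1572 and 3648 CPM. In the 11 WT-labelled ones with the most Meg3 these sums were 2721 and 6420 CPM, against 880 and 1761 CPM in those without. The part of RNA from other cell types in the Meg3 level was not tested.

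Rian, the snoRNA host downstream of Meg3, was highest in the mesothelial and stellate classes too, with 119.5 and 104 CPM in mesothelial cells, 13.1 and 17.7 CPM in stellate cells and 4.70 and 2.52 CPM in Kupffer cells of the KO-labelled and WT-labelled library. Mirg, the microRNA host at the end of the unit, had 24.3 and 17.3 CPM in mesothelial cells, 1.55 and 3.27 CPM in stellate cells and 0.447 and 0.336 CPM in Kupffer cells, from 36 and 51 UMIs over all kept cells. For both RNAs the mesothelial interval stood clear of the stellate one in each library. The mesothelial Mirg levels came from 11 and 4 UMIs, with a wide interval of 4.72 to 44.4 CPM in the WT-labelled library. In endothelial cells Rian had 1 UMI (0.0413 CPM) and 2 UMIs (0.0745 CPM), and Mirg had none.

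H19, the noncoding RNA next to Igf2, had 263 UMIs over all KO-labelled and 215 over all WT-labelled kept cells. Hepatocytes held the most, 220 UMIs (8.33 CPM, 7.26 to 9.50) in the KO-labelled and 117 UMIs (4.25 CPM, 3.51 to 5.09) in the WT-labelled library, and 1.07% and 0.836% of hepatocytes had a UMI. Cholangiocytes (5.62 CPM) and NK/ILC1 cells (4.41 CPM) came next in the KO-labelled library, where the WT-labelled library had 0 UMIs in both, and endothelial (0.372 and 2.87 CPM) and T cells (0.285 and 2.49 CPM) came next in the WT-labelled one. The interval of each class overlapped that of the next one in the order of H19 levels in both libraries. Hepatocytes stood above stellate (0.969 and 0.613 CPM) and Kupffer cells (0.298 and 0.0840 CPM) with intervals apart in both libraries, and above endothelial cells in the KO-labelled library only. Its neighbour Igf2, the fetal growth factor, had 0 UMIs in the KO-labelled and 1 UMI in the WT-labelled library, in an endothelial cell that was among the 4 with the most H19.

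Grb10, an adaptor that binds the insulin and IGF1 receptors and dampens their signal, had its highest levels in cholangiocytes (168.5 and 146.9 CPM), endothelial cells (153 and 147 CPM) and stellate cells (118 and 141 CPM). Cholangiocyte and endothelial intervals overlapped in both libraries. Cholangiocytes numbered 68 and 53, and the highest cell held 16.1% and 28.8% of their Grb10 UMIs. Hepatocytes followed at 46.7 CPM in the KO-labelled and 34.5 CPM in the WT-labelled library, below the mesothelial level of 95.2 and 108 CPM with no overlap. A Grb10 UMI was found in 58.5% and 59.7% of endothelial cells (22.8% and 23.8% after thinning), against 1.95% and 1.99% of T cells (0.937% and 0.203% after thinning), with median depths of 8273 and 8611 UMIs in endothelial cells. The endothelial RNA was spread over most cells of the class, with at most 28 UMIs in any KO-labelled and 26 in any WT-labelled cell.

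Igf2r, the cation-independent mannose 6-phosphate receptor that clears IGF2 and carries lysosomal enzymes, was highest in NK/ILC1 cells (88.1 and 88.0 CPM) and T cells (71.0 and 66.7 CPM). The intervals of these classes overlapped in both libraries. WT-labelled neutrophils stood between them at 84.7 CPM from few cells, where KO-labelled neutrophils had 41.2 CPM. Hepatocytes had 45.7 and 46.7 CPM, cholangiocytes 66.5 and 51.2 CPM, endothelial cells 18.8 and 19.03 CPM and plasmacytoid dendritic cells 7.38 and 6.88 CPM.

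Airn, the noncoding RNA that starts inside Igf2r and is known to silence the paternal Igf2r allele in cis, shared the high level in NK/ILC1 cells (271 and 209 CPM) and T cells (194 and 190 CPM). Its highest levels were in cholangiocytes (339 and 302 CPM, from 68 and 53 cells) and mesothelial cells (285.5 and 320.7 CPM). Mesothelial and NK/ILC1 intervals overlapped in the KO-labelled library. Stellate cells (214 and 227 CPM) and hepatocytes (179 and 164 CPM) had high levels too. Of the 2209 and 2223 stellate Airn UMIs, 1656 and 1270 lay in a cluster that also carried hepatocyte RNA. That cluster had 6819796 and 4699072 UMIs of all genes. The stellate cluster led by Dcn and Colec11 held 326 and 634 Airn UMIs among 2902845 and 4352207. The part of hepatocyte RNA in the stellate Airn level was not tested. Kupffer cells had 22.7 CPM (20.3 to 25.4) in the KO-labelled and 21.8 CPM (19.2 to 24.6) in the WT-labelled library, and endothelial cells had 57.6 and 59.4 CPM. An Airn UMI was found in 41.4% and 38.3% of hepatocytes and in 13.8% and 11.04% of Kupffer cells, or 21.8% and 21.3% against 4.47% and 4.17% after thinning. Airn differed between hepatocytes and Kupffer cells in the same way in both libraries, although Kupffer cells had the greater depth (median UMIs 8649 and 8523, against 5617 and 5269 in hepatocytes). The nuclear RNA Malat1 also differed, at 31880 and 32210 CPM in hepatocytes and 9996 and 11270 CPM in Kupffer cells. The part of nuclear RNA content in the Airn difference was not tested.

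Peg3, a zinc finger protein of the maternal behaviour and growth genes, was highest in cholangiocytes (159 and 146 CPM, from 68 and 53 cells). As far as counting error goes, this level was clear of the next class in both libraries. The 3 highest cholangiocytes held 32.4% and 40.5% of the Peg3 UMIs of their class. Hepatocytes (75.1 and 63.0 CPM), stellate cells (64.2 and 56.0 CPM) and mesothelial cells (59.8 and 34.7 CPM) followed. Hepatocyte and stellate intervals overlapped in the WT-labelled library and not in the KO-labelled one, and stellate and mesothelial intervals overlapped in both. Immune classes apart from neutrophils and plasmacytoid dendritic cells had at most 3.29 CPM, and endothelial cells had 5.95 and 6.11 CPM. A Peg3 UMI was seen in 33.4% of KO-labelled and 28.2% of WT-labelled hepatocytes (13.4% and 12.1% thinned), against 4.90% and 4.71% of endothelial cells (1.12% and 1.17% thinned).

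Plagl1, a zinc finger factor that controls other imprinted genes and cell cycle arrest, had its highest CPM in endothelial cells, 37.02 CPM (34.6 to 39.5) and 39.4 CPM (37.1 to 41.8). Stellate cells had 19.8 and 25.2 CPM, below the endothelial intervals, but a like share of cells with a UMI, 20.5% and 24.2% against 20.5% and 21.6% of endothelial cells (6.26% and 5.55% against 6.32% and 6.26% after thinning). Mesothelial cells had 31.0 and 8.67 CPM from 14 and 2 UMIs, overlapping the endothelial interval in the KO-labelled library, and cholangiocytes had 14.04 and 20.03 CPM. Conventional dendritic cells had 15.4 and 19.7 CPM. Hepatocytes stood near the bottom at 1.10 and 0.871 CPM, with intervals clear of the endothelial ones in both libraries. Within endothelium, Plagl1 was higher in the cluster led by Rspo3 and Selp (65.2 and 89.0 CPM) and the one led by Mecom and Nrg1 (88.3 and 82.7 CPM) than in the largest cluster, led by Kdr and Bmp2 (26.9 and 24.0 CPM).

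Impact, a gene of chromosome 18 whose protein binds GCN1 and holds back the amino acid sensing kinase GCN2, was found in every class. It had 114.5 and 100.9 CPM in neutrophils, 110.6 and 112.9 CPM in Kupffer cells, 92.9 and 103 CPM in plasmacytoid dendritic cells and 83.7 and 109 CPM in NK/ILC1 cells. These neighbours overlapped in the order of levels. Cholangiocytes had the lowest level, 24.3 and 17.8 CPM, and hepatocytes had 38.2 and 34.6 CPM.

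The comparison of the libraries asks whether loss of an imprinted transporter gene comes with another dose of imprinted genes elsewhere in the genome. Over all kept cells none of the 10 members passed a rule of size, which asked for at least 50 UMIs in both libraries together, a KO-labelled over WT-labelled CPM ratio of at least 2 or at most 0.5, and an exact 95% counting interval of the ratio that left out 1. Of all genes, 1.14% passed it. The ratios ran from 0.708 for Mirg to 1.23 for H19, with 1.18 for Peg3 (3325 and 2832 UMIs), 1.04 for Grb10 (7247 and 6979) and 1.06 for Airn (11440 and 10860). Within the 8 classes that had at least 100 cells in each library, 43 of 80 pairs of gene and class had enough UMIs, and 3 passed, all lower in the KO-labelled library. They were H19 in endothelial cells and Meg3 and Rian in hepatocytes. Over all genes 1.58% of such pairs passed the rule. By class the share of genes past it was 0.985% in endothelial cells (1 of 7 members), 1.6% in hepatocytes (2 of 9), 2.33% in stellate cells (0 of 8), 0.979% in Kupffer cells (0 of 6), 2.55% in conventional dendritic cells (0 of 4), 0.923% in B cells, 1.01% in NK/ILC1 cells and 2.35% in T cells (0 of 3 each).

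**Figure D2:**
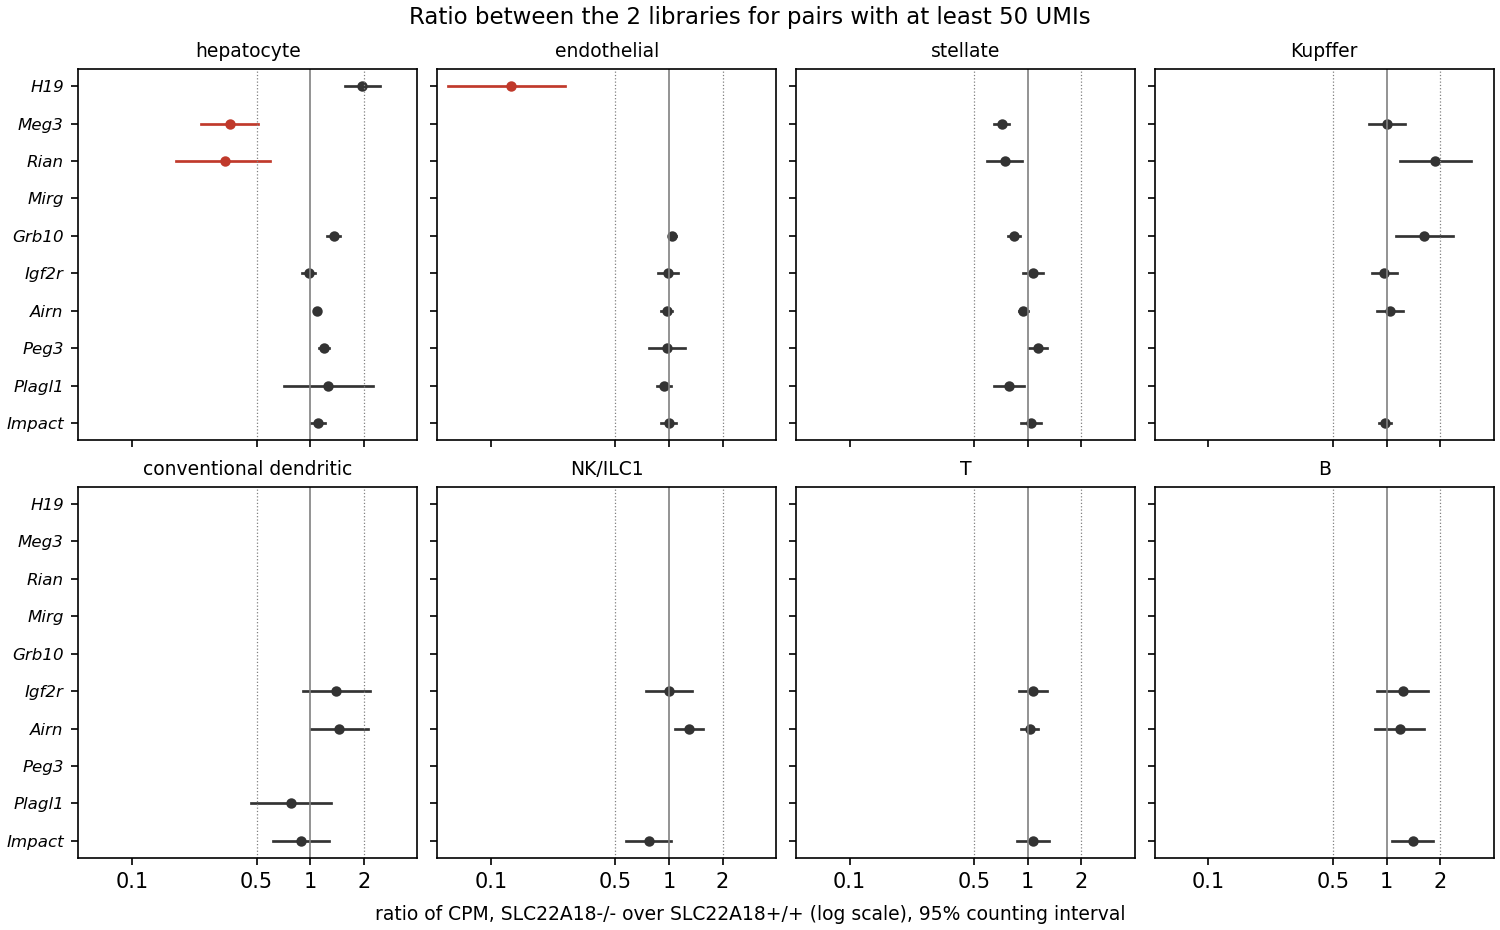
Ratio of CPM, SLC22A18-/- over SLC22A18+/+, on a log axis for the 43 pairs of gene and class with at least 50 UMIs, with exact 95% counting intervals; dotted lines mark 0.5 and 2, and red marks the 3 pairs past the rule of size. The 30 pairs with at least 200 UMIs lie between 0.714 and 1.96.

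The 3 pairs past the rule came from few UMIs. H19 in endothelial cells had 9 UMIs (0.372 CPM) in the KO-labelled and 77 UMIs (2.87 CPM) in the WT-labelled library, a ratio of 0.130 (0.0572 to 0.259). Meg3 in hepatocytes had 42 UMIs (1.59 CPM) and 123 UMIs (4.46 CPM), a ratio of 0.356 (0.245 to 0.509). Rian in hepatocytes had 16 and 50 UMIs, a ratio of 0.334 (0.177 to 0.596). Of these 50 UMIs, 36 lay in the 4 cells with the most Meg3, so the Meg3 and Rian pairs are not independent. In these classes 0.799% (endothelial) and 0.904% (hepatocyte) of all genes were lower by the same rule. Where the rule also asked that 5% of cells carry the RNA, 0 of the pairs passed.

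Beyond the rule, the intervals of 11 of the 43 pairs lay above 1 and those of 7 lay below 1, where 13.8% and 13.6% of all gene and class pairs did so. Grb10 in hepatocytes had 1234 and 952 UMIs, a ratio of 1.35 (1.24 to 1.47), and stayed between 1.25 and 1.43 under 9 other ways of processing. It stood above 1 in 5 of the 6 hepatocyte clusters, and in hepatocytes 23.8% of all genes had an interval above 1. Peg3 in hepatocytes had 1983 and 1735 UMIs, a ratio of 1.19 (1.12 to 1.27). Grb10 in Kupffer cells had 88 and 48 UMIs (1.63, 1.13 to 2.36), Airn in NK/ILC1 cells had 246 and 254 UMIs (1.297, 1.08 to 1.55) and Impact in B cells had 115 and 116 UMIs (1.40, 1.08 to 1.83). The shares of all genes with an interval above 1 were 9.09% in Kupffer, 4.85% in NK/ILC1 and 5.65% in B cells. Airn in conventional dendritic cells (75 and 53 UMIs, 1.45, 1.01 to 2.11) was the only member above 1 there, where 8.6% of genes were. Below 1 lay 3 pairs past the rule and 4 of 8 members in stellate cells, among them Plagl1 (0.784) and Grb10 (0.841, 0.778 to 0.908), beside Peg3 above 1. These did not hold under other processing: the stellate ratio of Plagl1 ran from 0.772 to 1.10 over 9 alternatives and kept its direction in 5, and that of Grb10 ran from 0.828 to 1.03 and kept it in 6. Intervals below 1 were found for 24.3% of all genes in stellate cells, 16.2% in hepatocytes and 14.9% in endothelial cells, and intervals above 1 for 24.3% in stellate cells.

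In several pairs with many UMIs the ratio lay close to 1. Grb10 in endothelial cells, with 3708 and 3942 UMIs, had the ratio 1.04 (0.998 to 1.09), Plagl1 there 0.940 (0.859 to 1.03), and Impact in Kupffer cells 0.980 (0.910 to 1.06). Igf2r and Airn in T cells had 1.07 (0.888 to 1.28) and 1.03 (0.920 to 1.14), and Igf2r in hepatocytes had 0.979 (0.904 to 1.06). These intervals of whole classes leave out a change of 1.5 times in either direction as far as counting error goes. Single clusters differed: Igf2r had 0.778 (0.641 to 0.942) in hepatocyte cluster 1 and 0.875 (0.792 to 0.966) in cluster 2. It lay above 1 in 3 of 6 hepatocyte clusters. Grb10 had 1.27 (1.06 to 1.52) and 1.38 (1.06 to 1.79) in the endothelial clusters led by Rspo3 and by Mecom. In the largest endothelial cluster it had 1.006 (0.951 to 1.065).

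The UMIs of H19 sat in a handful of cells. In KO-labelled hepatocytes 7 cells held 183 of 220 UMIs (98, 25, 24, 15, 9, 7 and 5), and in WT-labelled hepatocytes 4 cells held 80 of 117 (56, 10, 9 and 5). The remaining H19 was 37 UMIs in 25 KO-labelled cells and 37 UMIs in 22 WT-labelled cells. The highest cell alone held far more than was usual: for genes with 50 to 500 UMIs in hepatocytes the median share of the top cell was 2.08% and 2.09%. Among the high cells, 2 of the 7 KO-labelled and 1 of the 4 WT-labelled had over 10% mitochondrial UMIs, and with a limit of 10% the H19 ratio in hepatocytes was 0.909 (100 and 108 UMIs). With the limit of 20% used throughout it was 1.96 (1.56 to 2.48), short of the rule of size. With each cell weighted equally it was 0.762.

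These H19-high hepatocytes, chosen by their H19 UMIs, were hepatocytes by their markers. All 7 KO-labelled and 3 of the 4 WT-labelled ones lay in clusters 5 and 18, where low Malat1 (1195 and 1220 CPM in cluster 5) or high Alb (25680 and 33740 CPM in cluster 18) was found in the cluster as a whole. The summed CPM of the 10 hepatocyte markers was 60370 in the 7 KO-labelled and 79380 in the 4 WT-labelled cells, against 22940 and 28410 in cells without H19. Their level of Malat1, a nuclear RNA, was 2826 and 11560 CPM, against 32010 and 32240 CPM in the rest. The plasma haem carrier Hpx was among their leading genes, at 3386 and 11880 CPM against 481 and 632 CPM in the rest. None of them had a Meg3 or Igf2 UMI.

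H19 in endothelial cells rested on 4 cells of the WT-labelled library. These cells held 71 of the 77 UMIs (31, 20, 10 and 10), 2 of them in the cluster led by Rspo3 and Selp and 2 in the cluster led by Mecom and Nrg1, and the other 6 UMIs lay in 4 cells. In the KO-labelled library 9 cells held 1 UMI each. The share of endothelial cells with an H19 UMI was 0.344% and 0.286%, and the ratio with each cell weighted equally was 0.734. The 4 cells had 20054 to 98965 UMIs, a median of 51135 against 8604 in cells without H19, a median doublet score of 0.107 against 0.0417, and 8143 CPM of endothelial markers against 16260. Mesothelial markers summed to 181 CPM in them against 22.7, and Cd24a, Stmn2, Emp1 and Fbln5 led them, so the class name is uncertain for these cells, and the part of these values in the result was not tested.

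**Figure D3:**
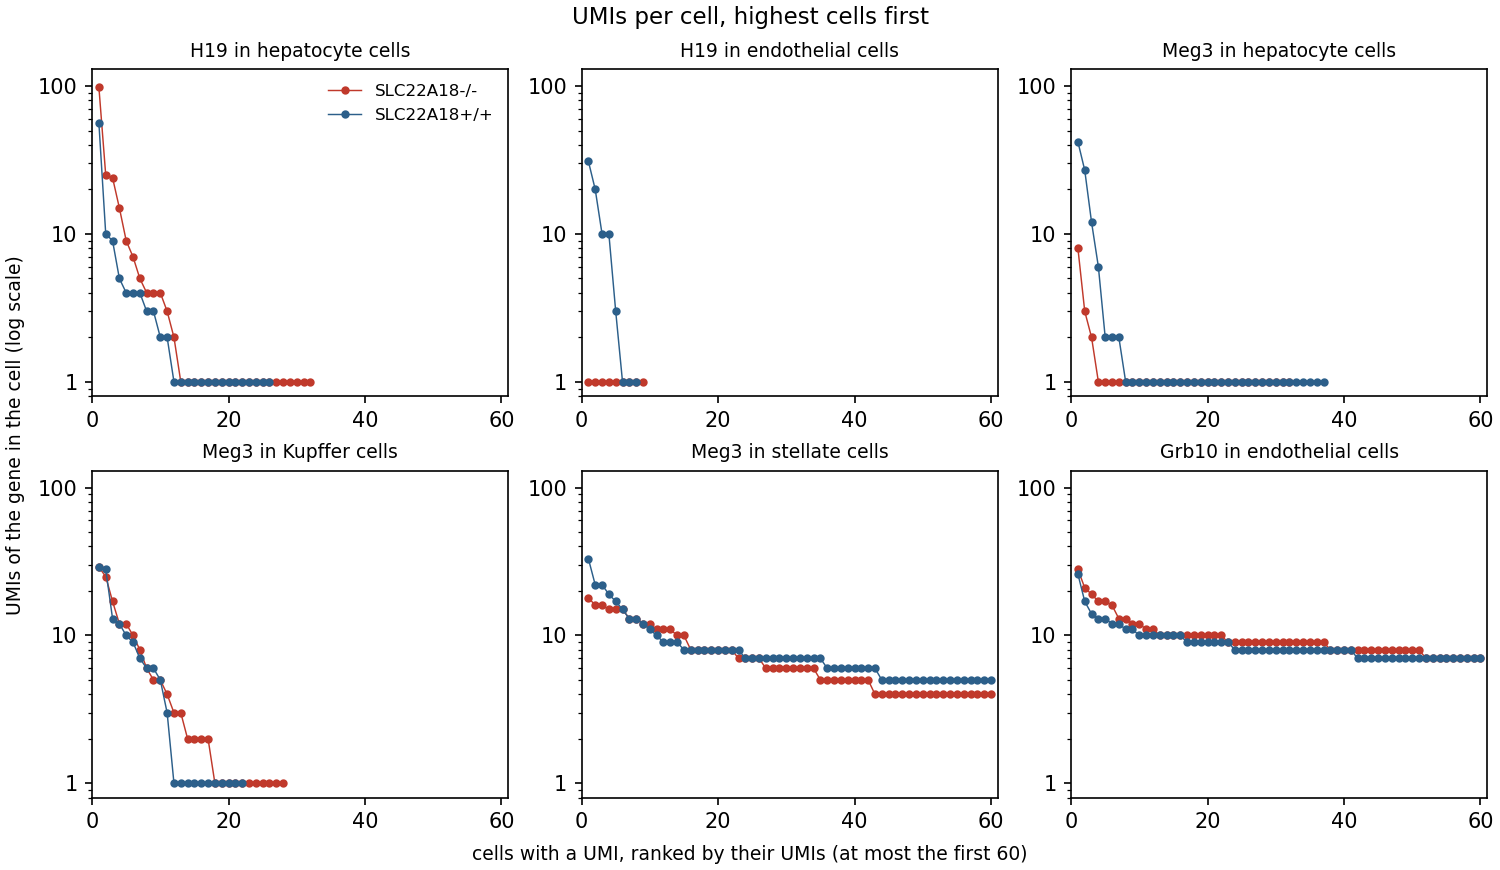
UMIs of a gene per cell (y, log scale) in cells with at least 1 UMI, ranked from the highest (x, at most 60 cells), for 6 pairs of gene and class in the SLC22A18-/- (red) and SLC22A18+/+ (blue) libraries. H19 and the hepatocyte and Kupffer Meg3 fall to 1 UMI within 20 cells, whereas Meg3 in stellate cells and Grb10 in endothelial cells decline slowly.

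Meg3 in hepatocytes rested on few cells too. In the WT-labelled library 4 cells held 87 of 123 UMIs (42, 27, 12 and 6), and in the KO-labelled library the highest cell held 8 of 42. Outside these, 33 WT-labelled cells held 36 UMIs and 31 KO-labelled cells held 34. The 4 WT-labelled cells, chosen by their Meg3 UMIs, also held Rian at 330.5 CPM against 0.510 in the rest, and Slc1a2 (1331 against 110 CPM), Lgr5 (239 against 43.8 CPM) and Glul (634 against 147 CPM), which are genes of the hepatocytes around the central vein. Of the 4 cells, 2 lay in hepatocyte cluster 32, which had 32 KO-labelled and 109 WT-labelled cells. With the libraries clustered each alone, the Meg3 ratio in hepatocytes was 0.883 (141 and 134 UMIs), and at a coarser clustering it was 0.551 (42 and 73 UMIs), both short of the rule. The Rian ratio in hepatocytes ran from 0.263 to 0.594 over 9 alternatives, and 7 of these kept the call. None of these alternatives took out all 4 cells by their Meg3, which held 36 of the 50 WT-labelled Rian UMIs. KO-labelled hepatocytes had 16 Rian UMIs in all.

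Kupffer cells showed a further such case, in both libraries alike. Meg3 was found in 28 of 1470 KO-labelled and 22 of 1277 WT-labelled Kupffer cells, and 10 cells in each library held 129 of 158 and 125 of 139 UMIs. In these cells Rian was the gene with the second largest fold after Meg3, at 367 CPM in the KO-labelled cells, against 0.603 CPM in the other Kupffer cells of that library, and at 142 CPM in the WT-labelled cells, against 0.681 CPM. Their Kupffer markers summed to 27250 and 27800 CPM, and stellate markers to 200 CPM each. The total Meg3 level of the class was 11.8 and 11.7 CPM (ratio 1.01, 0.798 to 1.28). Rian in Kupffer cells had 63 and 30 UMIs, a ratio of 1.86 (1.19 to 2.98), of which 43 and 18 lay in the 3 highest cells.

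Rian was found in a larger share of cells with Meg3 than of cells without it. Of stellate cells with a Meg3 UMI, 29.6% in the KO-labelled and 29.3% in the WT-labelled library also had a Rian UMI, against 3.09% and 5.26% of stellate cells without Meg3. In Kupffer cells these shares were 32.1% and 36.4% against 0.208% and 0.319%, and in mesothelial cells with Meg3 59.5% and 45.2%. A Mirg UMI was seen in 4.63% and 7.07% of stellate cells with Meg3, against 1.03% and 1.94% of those without, so most cells with Meg3 had none. Cells with Meg3 were also deeper, with median UMIs of 11655 and 10984 against 5356 and 5211 in stellate cells, and the part of depth in these shares was not tested. Over 16 points, 1 for each compared class and library, the log2(CPM + 1) of Meg3 and Rian had a Pearson r of 0.925, that of Rian and Mirg 0.927 and that of Meg3 and Mirg 0.895. Mesothelial cells are not among these points. Over them Mirg had 1.55 and 3.27 CPM in stellate cells (16 and 32 UMIs) and at most 0.447 CPM in any other class. Its r values thus rest on few counts. The points share libraries and depth, and r is given as a description.

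**Figure D4:**
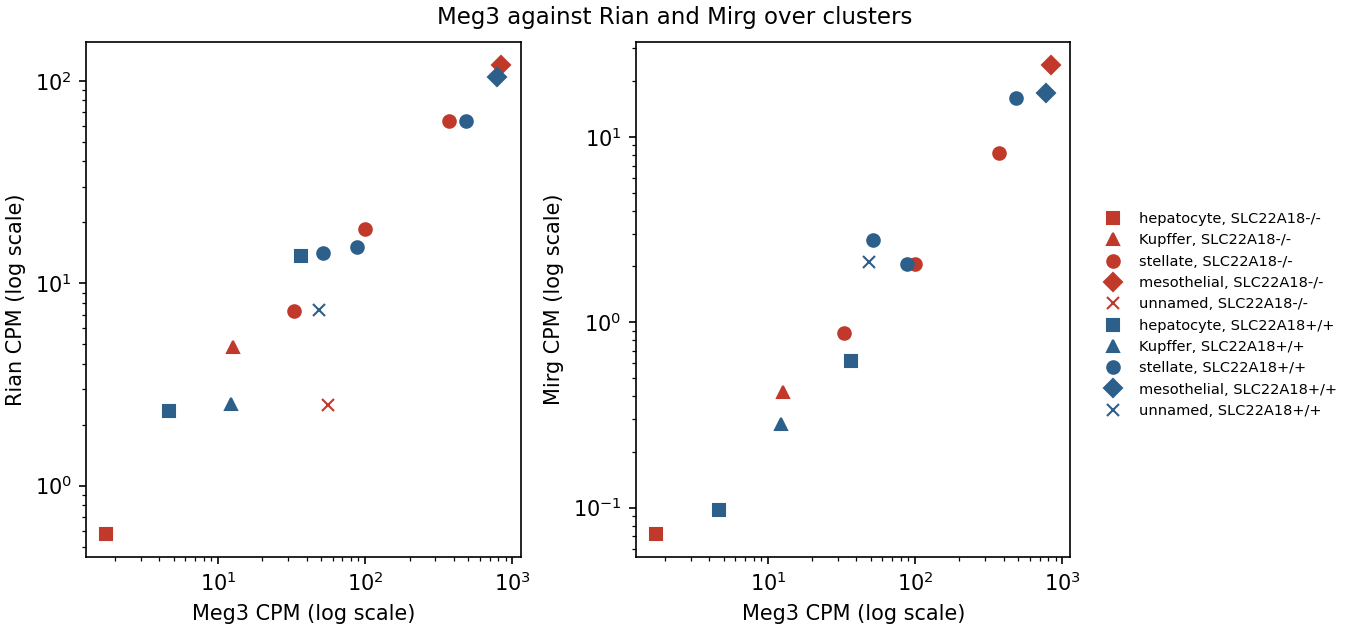
Level of Meg3 (x) against Rian (left, y) and Mirg (right, y), as CPM on log axes, for clusters with at least 20 Meg3 UMIs in the library shown, in the SLC22A18-/- (red) and SLC22A18+/+ (blue) libraries, with the cell class by symbol. The mesothelial cluster and the collagen-rich stellate cluster stand at the top right for all 3 RNAs.

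Stellate clusters differed from each other more than the libraries did. The cluster led by Col3a1 and Col1a1 had 373 and 484 CPM of Meg3, the one led by Dcn and Colec11 had 99.9 and 88.5 CPM, and a cluster that also carried hepatocyte RNA (Alb 6145 and 5843 CPM) had 33.0 and 51.7 CPM. This last cluster held 382 of 604 KO-labelled and 351 of 644 WT-labelled stellate cells. Without it, the Meg3 ratio in stellate cells was 1.01 (477 and 691 UMIs), against 0.714 (702 and 934 UMIs) with it, and that of Rian was 1.16 against 0.741. Peg3 followed the same split: it had 78.9 and 73.6 CPM in the cluster with hepatocyte RNA and 26.5 and 35.6 CPM in the Dcn cluster, and without the first cluster its stellate ratio was 0.890 against 1.15 with it. The part of hepatocyte RNA in these levels was not tested.

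Hepatocyte clusters differed in the members as well. Airn had 278 CPM in the KO-labelled and 294 CPM in the WT-labelled cells of cluster 2, and 68.7 and 92.7 CPM in those of cluster 1. Cluster 2 carried more of the pericentral gene Cyp2e1 (1350 and 1090 CPM, against 281 and 266 CPM in cluster 1) and less of the periportal genes Cyp2f2 (170 and 157, against 530 and 453 CPM) and Hal (391 and 355, against 1148 and 974 CPM). Igf2r went with Airn, at 62.9 and 71.9 CPM in cluster 2 and 29.8 and 38.3 CPM in cluster 1. Peg3 had the other order, 75.9 and 67.9 CPM in cluster 2 and 116 and 92.6 CPM in cluster 1. The members were left out of the genes used for clustering, but clusters were made from these same cells, so the differences are given as levels with no test.

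Cluster 5 had low levels of most members. It held 520 KO-labelled and 644 WT-labelled cells, Malat1 was at 1195 and 1220 CPM there against 43800 and 47360 CPM in cluster 1, and Alb was at 10120 and 13160 CPM. Malat1 was also low in the small cluster 37 (3161 and 2264 CPM; 19 and 79 cells), where Alb was at 24090 and 36200 CPM and Airn at 105 and 118.5 CPM. In cluster 5, Airn was at 4.97 and 7.04 CPM, Peg3 at 5.84 and 4.09 CPM, Igf2r at 4.67 and 3.64 CPM and Grb10 at 7.59 and 5.23 CPM. There H19 was at 21.0 CPM (16.5 to 26.5) and 17.7 CPM (14.01 to 22.1). H19 in cluster 1 was at 0.499 and 1.78 CPM. In cluster 18 it had 138 and 20 UMIs, and the KO-labelled cells with 98 and 24 UMIs were both in that cluster. The part of RNA quality in these levels was not tested.

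**Figure D5:**
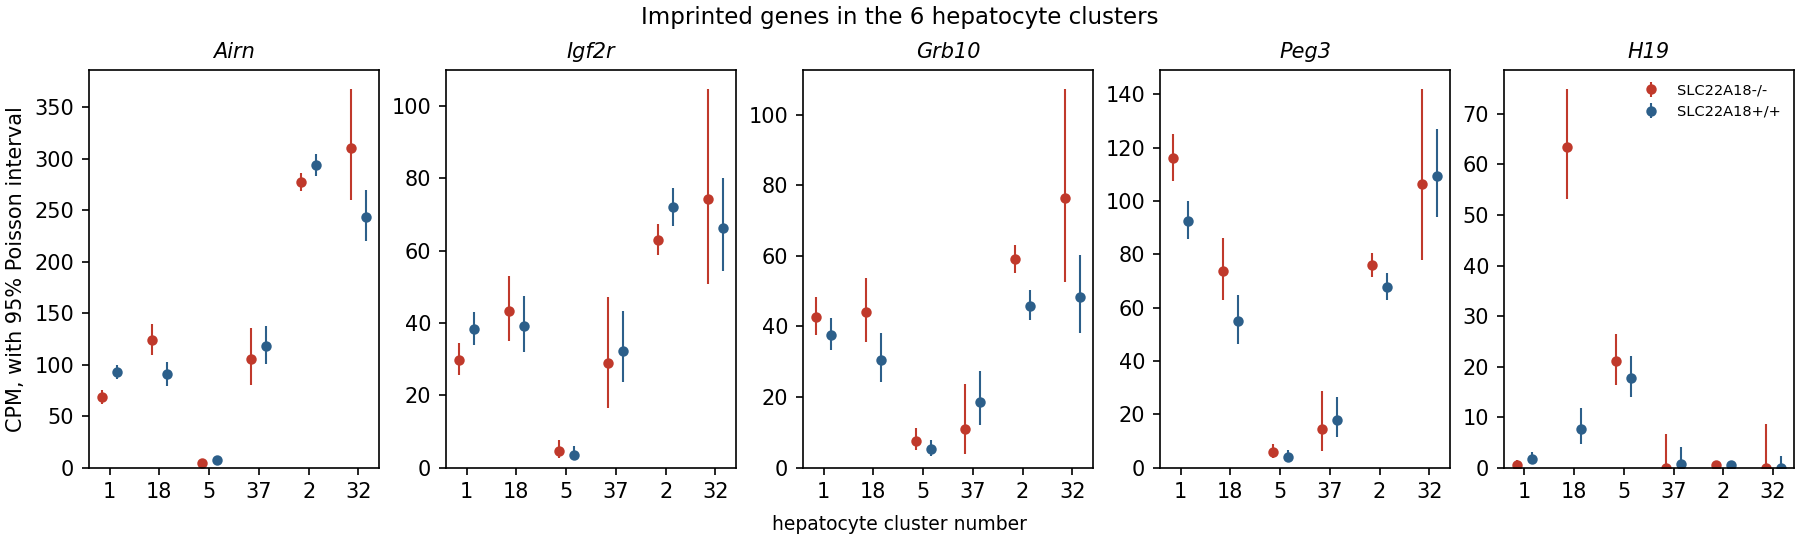
Level of 5 members (CPM, linear axis from 0, with exact 95% Poisson intervals) in the 6 hepatocyte clusters (x, cluster number) of the SLC22A18-/- (red) and SLC22A18+/+ (blue) libraries. Airn and Igf2r are highest in clusters 2 and 32, all genes but H19 are near 0 in cluster 5, and H19 in cluster 18 is at 63.4 and 7.65 CPM.

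Igf2r was found in a larger share of cells with Airn than of cells without it. An Igf2r UMI was seen in 44.5% and 45.7% of hepatocytes with Airn, against 10.7% and 11.5% of those without, and in 35.2% and 36.7% of T cells with Airn, against 18.9% and 21.4% of those without. Hepatocytes with Airn had median UMIs of 8706 and 7930, against 4468 and 4187 without, and T cells 5632 and 5451 against 4448 and 4896. Across the 16 class points Airn and Igf2r had an r of 0.845, Peg3 and Grb10 0.737, and Grb10 and Plagl1 0.686. As said above, reads in the shared 28354 bases cannot be assigned to either gene with certainty.

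Genes with the pattern most like each member over these 16 points, among 15072 genes, differed from member to member. Cxcl14 was closest to Meg3 (r 0.949), Lyzl4 to Rian (0.938), Mylk to Peg3 (0.987), Tshz2 to Grb10 (0.989), Itga8 to Plagl1 (0.954), Igflr1 to Igf2r (0.968), Hp1bp3 to Airn (0.962), Tmem273 to Impact (0.951) and Cnppd1 to H19 (0.808). Meg3 was itself the third closest gene to Rian (0.925). Fermt2 and Rarb came next for Grb10 (0.988 and 0.985), Cyp2j9 and Gm46329 for Peg3 (0.986 and 0.983), and Asap1 and Adgra2 for Plagl1 (0.952 each). Tox and Hdac4 followed for Airn (0.944 each), Gm28960 and Epb41 for Igf2r (0.965 and 0.956), Aoah and Gm57239 for Impact (0.934 and 0.924), Gm13470 and Pde8b for Meg3 (0.944 and 0.937), Tafa1 for Rian (0.928), and Mrps5 and Tgds for H19 (0.799 and 0.775). Mirg had too few UMIs for this.

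The genes around the members in their pathways were read by the same rule of size over all kept cells, where 1.14% of all genes passed. Of 13 genes of imprint maintenance and H19 control with enough UMIs, 0 passed in either direction, and their median log2 ratio was 0.01, the same as that of all genes (0.01). Zbtb20, which represses fetal genes in hepatocytes, had 137810 and 137474 UMIs, and Dnmt3a, a DNA methyltransferase, had 13707 and 13413. Zhx2, the known repressor of H19 and Afp in adult liver, had 5984 and 6201 UMIs (ratio 0.968, 0.934 to 1.003) and was named after its values were seen. Uhrf1, which binds hemimethylated DNA at replication and brings in Dnmt1, was lower in KO-labelled hepatocytes, with 52 and 132 UMIs (ratio 0.411, 0.292 to 0.570). Uhrf1 was also lower in Kupffer cells (53 and 150 UMIs) and higher in T cells (101 and 49 UMIs), values that were picked out after they were seen. It was the only one to pass of 11 list genes with enough UMIs in hepatocytes, 11 in Kupffer cells and 9 in T cells. Of all genes, 1.6%, 0.979% and 2.35% passed in these classes.

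Of 13 insulin and IGF receptor genes and adaptors around Grb10 with enough UMIs, 0 passed (median log2 ratio 0.09). Igf1, the growth factor made by hepatocytes, had 39550 and 31490 UMIs, a ratio of 1.26, and Nedd4, a ubiquitin ligase that binds Grb10, had 26382 and 27992 UMIs (0.945). Insr, the insulin receptor, had 14212 and 11855 UMIs in hepatocytes (ratio 1.25, 1.22 to 1.28), where Grb10 had 1.35, and was also named after its values were seen. Of 21 genes of mannose 6-phosphate sorting around Igf2r, 0 passed over all kept cells (median 0.05), with Ctsb, a lysosomal protease, at 93691 and 86682 UMIs and Psap, the saposin precursor, at 53276 and 50638. Of 14 genes of amino acid sensing around Impact, 0 passed (median -0.04), with Ppp1r15a, which directs dephosphorylation of eIF2, at 22668 and 22137 UMIs and Atf4, the transcription factor of the response, at 11503 and 12227.

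Of 10 genes named as targets or partners of Plagl1 and Peg3, 1 was lower and 0 were higher (median log2 ratio -0.09). The lower one was Slc2a4, the insulin-regulated glucose transporter, with 12 UMIs in the KO-labelled and 43 in the WT-labelled library (ratio 0.280, 0.134 to 0.540). Ctnnb1, the Wnt signal carrier beta-catenin, had 20634 and 22087 UMIs (ratio 0.937), and Bax, an effector of cell death, had 9886 and 10926 (0.907); both were named after their values were seen. Beside the members, 36 of 52 other imprinted genes outside the Slc22a18 domain had enough UMIs, and 0 of them passed over all kept cells (median log2 ratio 0.02). In the classes where a member passed, hepatocytes and endothelial cells, 0 of 27 and 0 of 29 passed.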

How the data were processed

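The matrices deposited by the authors hold whole UMI counts for each gene in each barcode, not normalised. Their headers name Cell Ranger 8.0.1, and STAR and the mm10 build come from the submitters' processing notes. The sources used here do not give the annotation or the settings for introns and strand. Barcodes with at least 500 UMIs, at least 300 genes and at most 20% mitochondrial UMIs were kept, and doublets called by Scrublet at its own thresholds (303 KO-labelled and 402 WT-labelled cells) were removed. Free RNA was not subtracted.

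Cells of both libraries were clustered together (2000 variable genes, 30 components, 15 neighbours, Leiden resolution 1) without the members, other imprinted genes and Slc22a18. Clusters were named by markers; the rule on a second class was relaxed and 1 pass added after the clusters were seen. Of 46 clusters 9 stayed unnamed (12.7% and 14.3% of cells). UMIs were summed per class and library and given as CPM, with exact Poisson intervals; ratios (KO-labelled over WT-labelled) and shares have exact Clopper-Pearson intervals at 95%. Intervals and the floor of 3 counts cover counting error only. Shares are given as found and after thinning to 2000 UMIs per cell. Cells are not replicates, and no test was run.

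All 10 members are described. Each has the 3 highest classes named, every class past the rule of size and, with at least 100 UMIs in each library, the 3 genes with the highest Pearson r on log2(CPM + 1). From each list, genes past the rule over all cells or in a class where a member passed were named, otherwise the 2 with the most UMIs. The members and lists were chosen with earlier results of these data known. The rule of size was tried on simulated Poisson counts for hepatocytes and endothelial cells. The other steps were not part of that simulation, which did not model UMIs gathered in few cells. Tools were Python 3.11.15, numpy 2.4.6, scipy 1.17.1, scikit-learn 1.9.0, scanpy 1.11.5 and leidenalg 0.10.2.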

Additional observations from a re-analysis of the deposited data

Results flagged for a closer look

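H19 stood on opposite sides of 1 in its classes, with a ratio (KO-labelled over WT-labelled) of 1.96 in hepatocytes and 0.130 in endothelial cells, but whether these classes truly differ was not tested. The hepatocyte ratio was 0.909 with at most 10% mitochondrial UMIs and 0.762 with each cell weighted equally, so both classes then lay below 1. Rian did the same, with a ratio of 1.86 in Kupffer cells, 0.334 in hepatocytes and 0.741 in stellate cells, and here too the contrast between classes was not tested. The stellate ratio was 1.16 without the cluster that carried hepatocyte RNA. Each of these intervals left out 1 in its own class. The counts behind them are 220 and 117 UMIs (H19, hepatocytes), 9 and 77 (H19, endothelial cells), 63 and 30 (Rian, Kupffer cells), 16 and 50 (Rian, hepatocytes) and 135 and 173 (Rian, stellate cells).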

How the results depend on the processing

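The count of 3 pairs past the rule of size (0 higher and 3 lower) depended on the settings. With doublet calls kept, and with the same cluster weights in both libraries, 1 pair was higher. At Leiden resolution 0.5 the total was 1, and that 1 pair was lower. With each library clustered alone, 2 pairs were higher and 1 was lower. Without the highest cell of each class and library, chosen after seeing the data, the total was 5 with 2 higher. With the RNA also required in 5% of cells, the total was 0 and 0 were lower. At a minimum of 20 summed UMIs the total was 5 and 1 was higher, with Mirg in stellate cells (16 and 32 UMIs) and Plagl1 in Kupffer cells (32 and 5 UMIs) added. The causes were not tested. No called ratio was reversed.

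Of 43 ratios, 19 kept their direction under all 9 alternatives. Without thinning 87 of 160 shares moved by more than their interval. Of 20 orders of classes, 9 kept the same 3 highest classes under the alternatives and 11 kept 2 of them. Depth limits Mirg most (36 and 51 UMIs), and 37 of 80 pairs had fewer than 50 UMIs. No replicate could be left out with 1 library per genotype. No paired analysis was possible because each genotype had 1 library.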

Other observations

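Other imprinted genes outside the Slc22a18 domain had class patterns of their own. Of 34 with at least 100 UMIs, 22 had the same highest class in both libraries. Gnas, the stimulatory G protein subunit, was highest in plasmacytoid dendritic cells (669.6 CPM KO-labelled, 959.9 CPM WT-labelled), as was Phactr2 (553.1 and 472.5 CPM). Slc38a4, an amino acid transporter, was highest in hepatocytes (822.3 and 963.0 CPM), as was Tfpi2, a protease inhibitor (196.3 and 178.8 CPM). Cobl, an actin nucleator, was highest in mesothelial cells (378.4 and 390.0 CPM), Ppp1r9a in cholangiocytes (247.1 and 219.2 CPM), Pon2 in endothelial cells (111.8 and 113.0 CPM) and Trappc9 in NK/ILC1 cells (134.4 and 144.0 CPM).

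Beyond the classes where a member passed the rule of size, 3 of these genes passed it and were named after their values were seen. Mest had 95 and 35 UMIs in Kupffer cells (ratio 2.41), 1 of 25 genes with enough UMIs there, where 0.979% of all genes passed. Ppp1r9a had 39 and 20 UMIs in T cells (2.01), 1 of 16, where 2.35% of all genes passed. B830012L14Rik had 30 and 59 UMIs in stellate cells (0.483), 1 of 30, where 2.33% of all genes passed.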
